A study of Penicillium oxalicum with 6 samples.

Results

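The genes described here encode 6 endo-xylanases of *Penicillium oxalicum*, out of 9834 genes measured. They are *Xyn10A* (*POX00063*), *POX05916*, *Xyn11A* (*POX06783*), *POX03430*, *POX06601* and *POX04274*, the genes that the study annotated as xylanase genes among the differentially expressed genes (DEGs) of these same libraries. A gene entered that list by an absolute log2 ratio of FPKM between the strains of at least 1 and a probability criterion of the study, so the strain difference of the 6 genes chose them. It is therefore given below as a description, with no test. All 6 genes passed the filter on low counts.

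Libraries came from 2 strains, the deletion mutant Δ*PoxMKK1* and the strain in which it was made, Δ*PoxKu70*, with replicates labelled F, S and T for each. Δ*PoxMKK1* lacks *PoxMKK1* (*POX07948*), a mitogen-activated protein kinase kinase gene that was exchanged for a G418-resistance cassette in Δ*PoxKu70*. Both strains carry the replacement of *PoxKu70* (*POX01583*), a gene of non-homologous end joining, so the control is not the wild type. Mycelia of both strains were pre-grown on glucose at 28 °C and then exposed to 2% Avicel, a microcrystalline cellulose, for 24 h before messenger RNA was sequenced, which asks how the loss of the kinase gene alters transcription of the enzymes of plant cell-wall breakdown.

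Xylan, the main hemicellulose of grasses and hardwoods, is a chain of xylose units that carries arabinose, glucuronic acid and acetyl side groups. Endo-xylanases cut the chain at internal bonds and release shorter xylo-oligosaccharides, which β-xylosidases shorten to xylose, while esterases and arabinofuranosidases remove the side groups. The 6 genes fall into 3 glycoside hydrolase families with 2 genes each. Enzymes of family GH10 accept xylan with many side groups, those of GH11 are small proteins with a strong preference for less substituted xylan, and fungal GH30 xylanases act on glucuronoxylan or release short products from chain ends. One gene of each family, *Xyn10A*, *Xyn11A* and *POX06601*, is annotated with a carbohydrate-binding module of family CBM1, which binds cellulose. The other gene of each family has no such annotation.

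The total expected count, an estimated number of reads per gene summed over all genes, was between 13687087 and 14042791 per library. *PoxMKK1* had 3 counts over the 3 Δ*PoxMKK1* libraries, against 2001 counts over the 3 Δ*PoxKu70* libraries, a level 663 times higher in Δ*PoxKu70* per counted read (95% Clopper-Pearson interval 226 to 3220, counting error only). *POX01583* still had FPKM values of 55.4 to 62.8 in Δ*PoxMKK1* and 63.5 to 81.4 in Δ*PoxKu70*, although the study's methods describe it as replaced in both strains; which stretch of the gene gave these reads cannot be told from gene totals. The conidiation regulators *PoxBrlA*, *PoxAbaA* and *PoxFlbD*, listed as markers of spore-forming cells, were all higher in Δ*PoxMKK1*, with log2 fold changes of 3.95, 4.55 and 1.42. These 3 genes are among the study's DEGs of these libraries, so their direction is not independent evidence. Of all genes tested, 10.8% were called higher by the rule given below. *PoxBrlA* ranged between 379 and 460.5 FPKM in Δ*PoxMKK1*, against 5.38 to 42.2 FPKM in Δ*PoxKu70*. Summed over the 3 markers, the level was 915.3 to 996.0 FPKM in Δ*PoxMKK1* and 126.5 to 256.3 FPKM in Δ*PoxKu70*, with none of them at 0 in any library. Their part in the xylanase differences below was not tested. In bulk RNA, fewer cells that transcribe a gene and less of its RNA per cell cannot be told apart.

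Transcripts of 5 of the 6 endo-xylanase genes were less abundant in Δ*PoxMKK1*, and those of *POX03430* were more abundant. A gene was called when edgeR's quasi-likelihood test gave a Benjamini-Hochberg adjusted p under 0.05 together with a log2 fold change of 1 or more in either direction, and over the 8749 genes tested this rule called 19.8%, with 8.93% lower and 10.8% higher in Δ*PoxMKK1*. All 6 members lay past this rule, as the way they were chosen makes likely, and nothing is read from that count. The FPKM values of the strains did not overlap for 6 of 6 members, against 59.0% of all genes tested. The log2 fold changes of the members had a median of -2.27 and ran from -4.55 to 1.50, beside a median of 0.01 over all genes tested. The choice of the members makes both of these contrasts with all genes likely, so nothing is read from them either. Values are given for each gene by family.

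**Figure D1:**
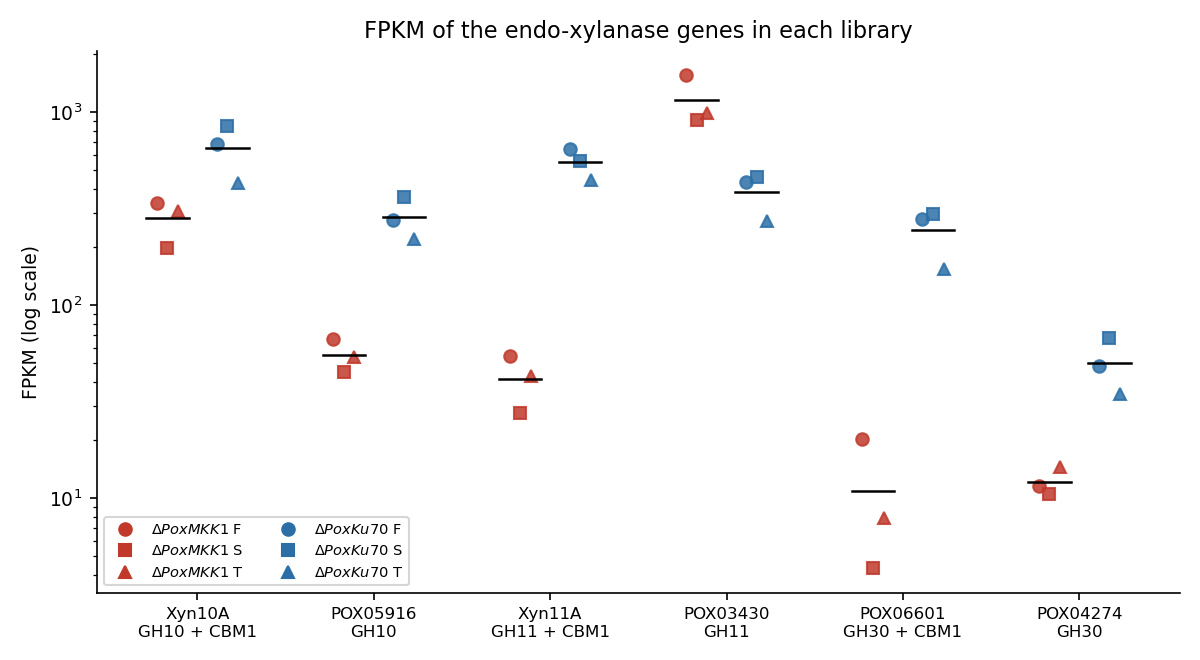
FPKM (log axis) of the 6 endo-xylanase genes in each of the 6 libraries, with Δ*PoxMKK1* in red to the left of Δ*PoxKu70* in blue; symbols mark replicates F, S and T and black lines the strain means. The Δ*PoxMKK1* values lie below all Δ*PoxKu70* values for 5 genes and above them for *POX03430*, whose means are 1151 in Δ*PoxMKK1* and 388 in Δ*PoxKu70*.

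Of the GH10 pair, *Xyn10A* encodes the enzyme with the cellulose-binding module. Its FPKM values, here and below in the order F, S and T, were 340.0, 197.4 and 307.2 for Δ*PoxMKK1*, against 680.4, 844.4 and 429.4 for Δ*PoxKu70*. The highest mutant library stayed below the lowest control library, and the gap between them was narrower than the spread within either strain. The means were 281.5 ± 74.7 in Δ*PoxMKK1* and 651.4 ± 209.0 in Δ*PoxKu70* (SD, n = 3 each), a log2 fold change of -1.28 (standard error 0.31) that lay between -1.54 and -1.05 when each library was left out in turn. Among the 6 members it was the one nearest to the fold minimum of the study's list.

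*POX05916*, the GH10 gene without CBM1, was separated more widely. Its FPKM values were 66.9, 45.1 and 54.2 in Δ*PoxMKK1*, against 276.0, 361.5 and 220.6 in Δ*PoxKu70*. The lowest control library was over 3 times the highest mutant library. The means were 55.4 ± 11.0 in Δ*PoxMKK1* and 286.0 ± 71.0 in Δ*PoxKu70* (SD, n = 3 each), and the log2 fold change was -2.43 (standard error 0.23; -2.62 to -2.23 with each library left out). Within each library, which cancels its depth, the FPKM of *POX05916* was 0.197, 0.228 and 0.176 times that of *Xyn10A* in Δ*PoxMKK1* and 0.406, 0.428 and 0.514 times that of *Xyn10A* in Δ*PoxKu70*. Of the transcripts of this GH10 pair, *POX05916* thus made up a smaller part in every mutant library than in any control library.

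The GH11 pair among the members moved in opposite directions. *Xyn11A*, with CBM1, had FPKM values of 54.4, 27.6 and 43.1 in Δ*PoxMKK1*, against 646.8, 558.1 and 444.4 in Δ*PoxKu70*. The control libraries of this gene varied less among themselves than those of any other member (coefficient of variation 18.5%), and every one of them was far above every mutant library. The means were 41.7 ± 13.4 in Δ*PoxMKK1* and 549.8 ± 101.5 in Δ*PoxKu70* (SD, n = 3 each), so the mutant kept 7.58% of the control level, with a log2 fold change of -3.79 (standard error 0.29; -4.03 to -3.56 with each library left out).

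*POX03430*, the GH11 gene without CBM1, was the exception among the 6 genes. It had FPKM values of 1550.5, 907.5 and 995.8 in Δ*PoxMKK1*, against 432.2, 460.3 and 271.6 in Δ*PoxKu70*. All mutant libraries were above all control libraries, with replicate F of Δ*PoxMKK1* the highest. The means were 1151 ± 348.5 in Δ*PoxMKK1* and 388 ± 101.8 in Δ*PoxKu70* (SD, n = 3 each), 2.97 times as high in the mutant, and the log2 fold change was 1.50 (standard error 0.29; 1.23 to 1.65 with each library left out). Ranked by FPKM among all 9834 genes, *POX03430* stood between the 98.2 and 99.2 percentiles in Δ*PoxMKK1* and between the 93.7 and 96.0 percentiles in Δ*PoxKu70*, so it was an abundant transcript in both strains. The ratio of *POX03430* to *Xyn11A* FPKM within a library was 28.5, 32.9 and 23.1 in Δ*PoxMKK1* and 0.668, 0.825 and 0.611 in Δ*PoxKu70*, a 40.2-fold difference between the mean ratios. Of these 2 genes, *POX03430* was thus the more abundant in all 3 mutant libraries, and *Xyn11A* in all 3 control libraries.

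The GH30 pair held the least abundant members in the mutant. *POX06601*, with CBM1, had FPKM values of 20.4, 4.35 and 7.94 in Δ*PoxMKK1*, against 280.8, 296.8 and 154.2 in Δ*PoxKu70*. Its place among all genes was between the 19.3 and 45.4 percentiles in the mutant and between the 89.1 and 94.1 percentiles in the control, the widest change of rank of the 6 genes. Its means were 10.9 ± 8.41 in Δ*PoxMKK1* and 243.9 ± 78.1 in Δ*PoxKu70* (SD, n = 3 each), and the log2 fold change was -4.55 (standard error 0.61). Replicate F of Δ*PoxMKK1* was well above both other mutant libraries, with 457 counts against 97 in replicate S and 176 in replicate T, and without it the log2 fold change was -5.38. The coefficient of variation in the mutant was 77.2%, against at most 32.3% in the mutant for the other members.

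*POX04274*, the GH30 gene without CBM1, had FPKM values of 11.6, 10.5 and 14.5 in Δ*PoxMKK1*, against 48.3, 67.6 and 34.5 in Δ*PoxKu70*. The mutant libraries lay close together and below all control libraries. The means were 12.2 ± 2.05 in Δ*PoxMKK1* and 50.1 ± 16.6 in Δ*PoxKu70* (SD, n = 3 each), with a log2 fold change of -2.11 (standard error 0.26; -2.34 to -1.83 with each library left out). Within a library, *POX04274* had 0.568, 2.42 and 1.82 times the FPKM of *POX06601* in Δ*PoxMKK1* and 0.172, 0.228 and 0.224 times in Δ*PoxKu70*. *POX06601* was the more abundant GH30 transcript only in replicate F among the mutant libraries, and in 3 of 3 control libraries.

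FPKM is a level per length of transcript, so the members can also be set against each other. In Δ*PoxMKK1* the order of the means was *POX03430*, *Xyn10A*, *POX05916*, *Xyn11A*, *POX04274* and *POX06601*. The values of *POX05916* and *Xyn11A* overlapped, as did those of *POX04274* and *POX06601*, while the other neighbours in this order did not overlap. In Δ*PoxKu70* the order was *Xyn10A*, *Xyn11A*, *POX03430*, *POX05916*, *POX06601* and *POX04274*, and each neighbouring pair overlapped except *POX06601* and *POX04274*. Among the members, *POX03430* thus stood alone at the top in the mutant, whereas the top 5 genes of the control formed a graded series without gaps. This order leaves out *POX08484*, described below, which in the control lay above every member without overlap.

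The FPKM values of the 6 genes summed to 2044, 1192 and 1423 in Δ*PoxMKK1*, against 2365, 2589 and 1555 in Δ*PoxKu70*. These sums overlapped between the strains, with means of 1553 ± 440.3 in the mutant and 2169 ± 544 in the control (SD, n = 3 each), a decrease of the mean by 28.4%. Without *POX03430*, the remaining 5 genes summed to 493.3, 284.9 and 426.9 in Δ*PoxMKK1* and to 1932, 2128 and 1283 in Δ*PoxKu70*. The mean of that smaller sum decreased by 77.4%. It could not overlap between the strains, since each of the 5 genes was itself lower without overlap. The 6-gene sum overlapped with *POX03430*, the only member higher in the mutant, included.

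As a share of the summed FPKM, *POX03430* made up 75.9, 76.1 and 70.0% in Δ*PoxMKK1*, against 18.3, 17.8 and 17.5% in Δ*PoxKu70*. *Xyn11A* made up 2.31 to 3.03% in Δ*PoxMKK1* and 21.6 to 28.6% in Δ*PoxKu70*, and *Xyn10A* 16.6 to 21.6% in Δ*PoxMKK1* and 27.6 to 32.6% in Δ*PoxKu70*. *POX05916* held 3.27 to 3.81% in the mutant and 11.7 to 14.2% in the control, *POX06601* at most 0.997% in the mutant and at least 9.92% in the control, and *POX04274* at most 1.02% in the mutant and at least 2.04% in the control. No share of any member overlapped between the strains. The share of *POX03430* varied little within a strain, with an SD of 3.46 percentage points in Δ*PoxMKK1* and 0.41 percentage points in Δ*PoxKu70*. Shares of a sum are not independent of each other, since a larger part of *POX03430* lowers all others. They are not shares of all xylanase transcripts. The sum leaves out *POX08484*, a xylanase gene described below, with means of 647.1 FPKM in Δ*PoxMKK1* and 1273 FPKM in Δ*PoxKu70*.

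**Figure D2:**
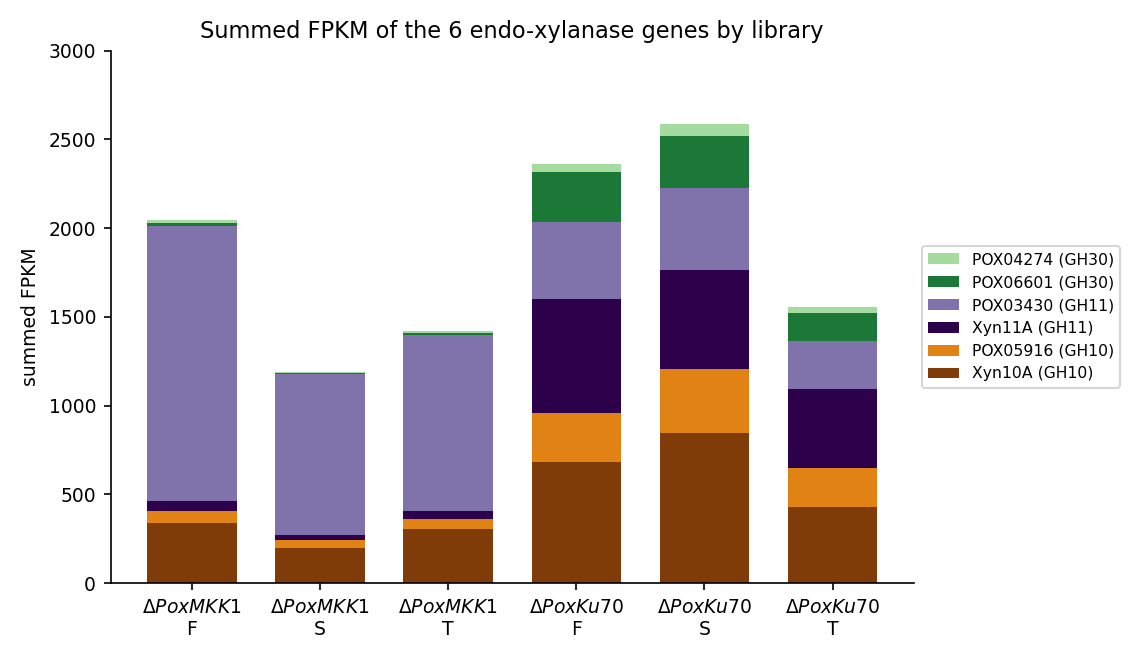
Summed FPKM of the 6 endo-xylanase genes in each library, Δ*PoxMKK1* on the left and Δ*PoxKu70* on the right, with 1 bar per library divided by gene. The sums of 1192 to 2044 in Δ*PoxMKK1* and 1555 to 2589 in Δ*PoxKu70* overlap, while *POX03430* fills 70.0 to 76.1% of each mutant bar and 17.5 to 18.3% of each control bar. The abundant xylanase gene *POX08484* is not part of the bars.

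The libraries of a strain differed from each other in the same way for nearly all members. Replicate S of Δ*PoxMKK1* was the lowest mutant library for 6 of 6 genes, while it was the lowest for 34.5% of all genes tested. Replicate T of Δ*PoxKu70* was the lowest control library for 6 of 6 genes, against 33.4% of all genes tested. The highest was replicate F of Δ*PoxMKK1* for 5 of 6 genes and replicate S of Δ*PoxKu70* for 5 of 6 genes, with *POX04274* and *Xyn11A* as the exceptions. Of all genes tested, 38.3% were highest in replicate F among the mutant libraries and 26.6% in replicate S among the control libraries. The gene that was higher in the mutant, *POX03430*, followed the same order as the genes that were lower. On the log2(FPKM + 0.5) scale, the median deviation of the members from their strain mean was -0.39 in replicate S of Δ*PoxMKK1* and -0.48 in replicate T of Δ*PoxKu70*, where the median over all genes tested was -0.02 and 0.03. *PoxBrlA*, in the same order F, S and T, was at 460.5, 394.1 and 379.5 FPKM for Δ*PoxMKK1* and at 29.4, 5.38 and 42.2 FPKM for Δ*PoxKu70*, so the control library with the least *PoxBrlA* was the highest for 5 of the 6 genes and the one with the most was the lowest for all 6. In the mutant the library with the most *PoxBrlA*, replicate F, was instead the highest for 5 of the 6 genes. With 3 libraries per strain this order is a description, and what it depends on was not tested.

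**Figure D3:**
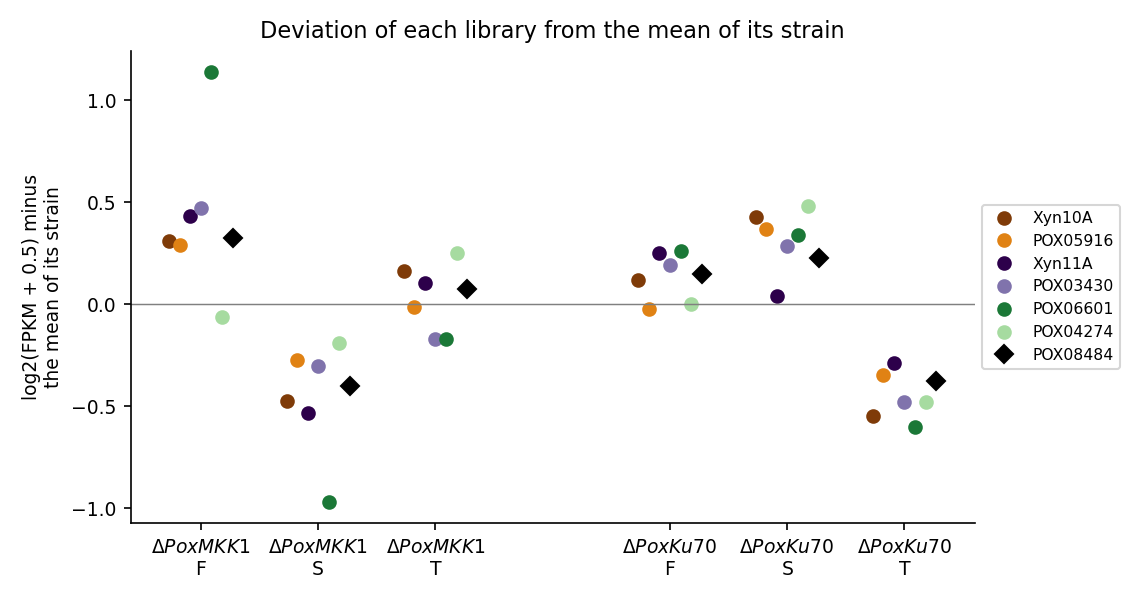
Deviation of log2(FPKM + 0.5) in each library from the mean of its strain, for the 6 members (circles) and *POX08484* (diamonds), with Δ*PoxMKK1* on the left and Δ*PoxKu70* on the right. All members lie below 0 in replicate S of Δ*PoxMKK1* and in replicate T of Δ*PoxKu70*, with medians of -0.39 and -0.48.

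A further xylanase gene, *POX08484*, was measured by the study with RT-qPCR and is absent from its list of DEGs. It is taken to be *Xyn11B* by elimination from the gene and primer names of the study. It was taken here for having been measured by RT-qPCR, not for its values in these libraries. The direction of its RT-qPCR difference between these strains was already known from the study, so its test below is not that of an unselected gene. It had FPKM values of 793.5, 480.2 and 667.5 in Δ*PoxMKK1*, against 1387, 1467 and 963.2 in Δ*PoxKu70*. The strains did not overlap, and in the control it was more abundant than any of the 6 members. The means were 647.1 ± 157.7 in Δ*PoxMKK1* and 1273 ± 271 in Δ*PoxKu70* (SD, n = 3 each), with a log2 fold change of -1.04 (standard error 0.25; Benjamini-Hochberg adjusted p = 0.0129 in edgeR's quasi-likelihood test), so *POX08484* fell and was called in this fit. Its fold sits at the minimum of 1: it was -0.98 with limma on log2(FPKM + 0.5), -0.97 with library sizes alone, and -0.87 without replicate S of Δ*PoxMKK1*, where the adjusted p remained below 0.05 but the fold minimum was missed. Without replicate F of Δ*PoxKu70* it was -0.97, and without replicate S of Δ*PoxKu70* -0.93.

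*Xyn10A* and *POX08484*, on either side of the fold minimum by the ratio of mean FPKM, were close to each other. The ratio of mean FPKM was 0.432 for *Xyn10A*, just inside the study's list, and 0.508 for *POX08484*, just outside it. Within a library, *Xyn10A* had 0.429, 0.411 and 0.46 times the FPKM of *POX08484* in Δ*PoxMKK1* and 0.49, 0.575 and 0.446 times in Δ*PoxKu70*, values that overlap between the strains. With *POX08484* added, the summed FPKM was 2837, 1673 and 2090 in Δ*PoxMKK1* and 3752, 4056 and 2518 in Δ*PoxKu70*, which still overlapped. Without *POX03430* it was 765.1 to 1287 in Δ*PoxMKK1* and 2246 to 3596 in Δ*PoxKu70*. That sum could not overlap, since each gene left in it was lower without overlap.

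The enzymes that complete xylan breakdown were listed by the study as DEGs from these libraries, so their direction is not independent evidence. Of 12 such genes, 9 were called lower in Δ*PoxMKK1*, 2 were called higher and 1 was not called, beside 8.93% lower and 10.8% higher among all genes tested. Their median log2 fold change was -1.61, beside 0.01 over all genes tested. Among 8 genes listed as β-xylosidases, which shorten xylo-oligosaccharides to xylose, 5 were lower and 2 higher. *POX08140* of family GH43 fell to 7.3 ± 1.27 FPKM in Δ*PoxMKK1*, against 56.7 ± 4.01 FPKM in Δ*PoxKu70* (SD, n = 3 each). *POX00923* and *POX09154*, also of GH43, were the exceptions, with log2 fold changes of 4.55 and 2.08. *POX00923* had 51.2 to 76.5 FPKM in Δ*PoxMKK1* against only 0.8 to 4.6 FPKM in Δ*PoxKu70*, and leaving out replicate T of Δ*PoxKu70* moved its log2 fold change to 5.26. *POX05540*, listed among them but of family GH62, which is known for arabinofuranosidases, was not called at a log2 fold change of -1.28 (edgeR adjusted p = 0.0521), but was called at -1.65 without replicate T of Δ*PoxKu70*, by DESeq2 (-1.32) and with DESeq2's size factors in edgeR (-1.32).

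All 4 esterase genes were lower in Δ*PoxMKK1*, with log2 fold changes of -2.21 to -1.37. Acetyl xylan esterases remove acetyl groups from the chain and feruloyl esterases release ferulic acid from its side groups. *POX03711*, an acetyl xylan esterase of family CE5 and the most abundant of the 4, had FPKM values of 187.6, 121.1 and 172.4 in Δ*PoxMKK1*, against 421.0, 598.6 and 230.6 in Δ*PoxKu70*, and was no longer called without replicate S of Δ*PoxMKK1* (edgeR adjusted p = 0.0567). The lowest control library was again replicate T, as for the 6 xylanase genes. The FPKM of the 4 esterase genes summed to 191.2 to 298.6 in Δ*PoxMKK1* and to 435.5 to 1037 in Δ*PoxKu70*, and that of the 8 genes listed as β-xylosidases to 187.3 to 273.3 in Δ*PoxMKK1* and to 368.8 to 673.2 in Δ*PoxKu70*. Neither sum overlapped between the strains. For the esterase genes this was fixed, since each of the 4 was lower without overlap. The 8 genes listed as β-xylosidases, like the 6 endo-xylanase genes, include genes that were higher in the mutant, so their sum was not fixed in this way.

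**Figure D4:**
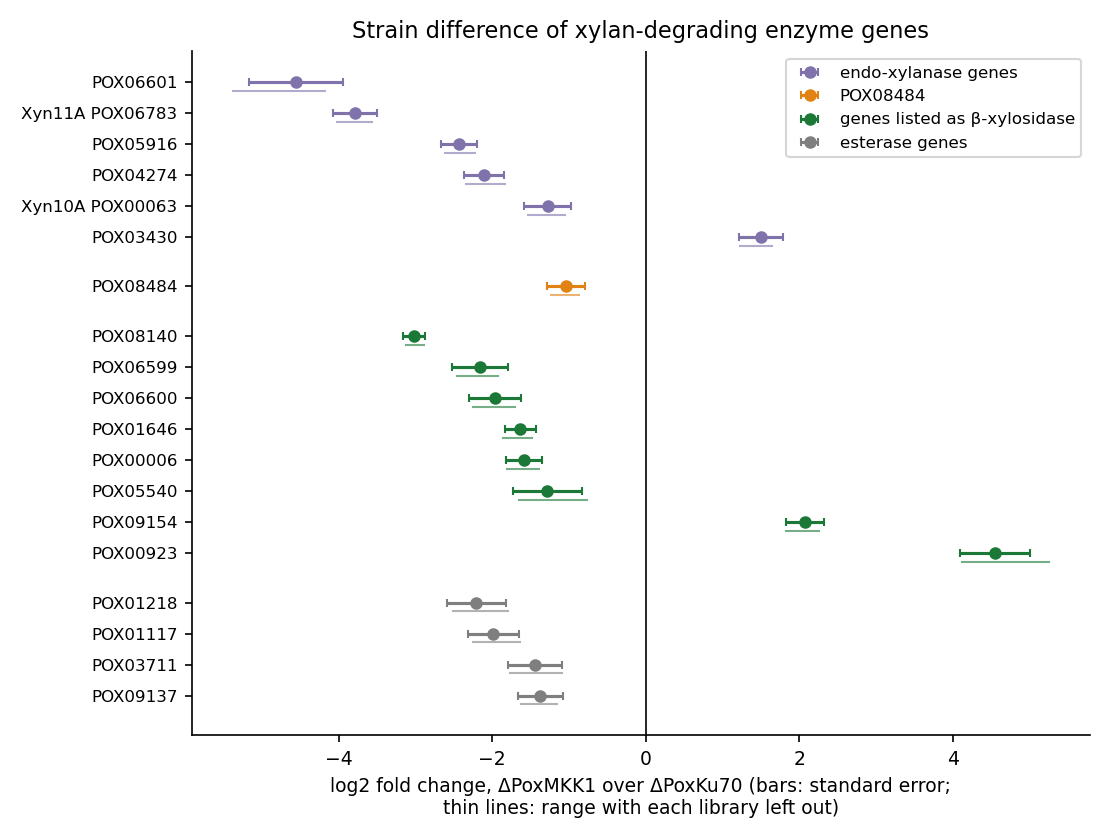
Log2 fold change of Δ*PoxMKK1* over Δ*PoxKu70* for the 6 members, *POX08484*, 8 genes listed as β-xylosidases and 4 esterase genes; error bars are standard errors from edgeR's fit and thin lines the range with each library left out in turn. *POX03430* (1.50), *POX09154* (2.08) and *POX00923* (4.55) are the genes to the right of 0.

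Transcription factor genes that the study relates to these enzymes were mostly taken from the study's DEGs of these libraries, apart from *PoxClrC* and *PoxAmyR*, so their count is not independent evidence. Of 10 such genes, 3 were called lower and 2 higher, beside 8.93% lower and 10.8% higher among all genes tested. *PoxClrB*, an activator of cellulase genes, had 40.6, 31.7 and 32.2 FPKM in Δ*PoxMKK1*, against 100.6, 91.8 and 71.5 FPKM in Δ*PoxKu70* (log2 fold change -1.40). *PoxCxrB*, a zinc finger factor known as a positive regulator of cellulase and xylanase production in this species, had 29.4, 61.4 and 78.4 FPKM in Δ*PoxMKK1*, against 145.7, 264.5 and 224.5 FPKM in Δ*PoxKu70* (log2 fold change -1.97). Neither overlapped between the strains. *PoxClrB* had the same order of libraries as *Xyn11A* in both strains, though its mutant replicates S and T were close to each other. Its highest control library was replicate F, whereas 5 of the 6 xylanase genes, and *PoxCxrB*, were highest in replicate S. The lowest library of *PoxCxrB* was replicate F in both strains, and in the mutant 5 of the 6 xylanase genes were highest there. What these orders depend on was not tested. *POX01118* was lower as well (-1.51), while *PoxRfxA* (1.07) and *POX09124* (2.48) were higher, and *PoxRfxA* missed the fold minimum when replicate F of Δ*PoxKu70* was left out (0.97).

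Of the 5 regulators not called, *PoxPacC* (0.95), named after the ambient pH regulator PacC of *Aspergillus*, missed the fold minimum and was called without replicate S of Δ*PoxKu70* (1.12), without replicate F of Δ*PoxMKK1* (1.06), with library sizes alone (1.02) and with limma at a pseudocount of 0.5 (1.01). *PoxClrC* (-0.58) was called without replicate T of Δ*PoxMKK1* (-1.03). *POX09469* (1.09), *POX05276* (0.35) and *PoxAmyR* (-0.11), the last an activator of amylase genes, were not called in any of the fits run. *POX09469* varied widely in the control, with 257.2, 208.6 and 204.7 FPKM in Δ*PoxMKK1* against 102.4, 23.6 and 178.9 FPKM in Δ*PoxKu70*. The log2 fold change of this gene was 1.73 without replicate T and 0.62 without replicate S of Δ*PoxKu70*. Apart from *PoxMKK1* itself, 3 genes encode proteins that the study names as interacting with the kinase PoxMK1, and these had log2 fold changes of -0.17 to 0.22, with adjusted p of 0.111 to 0.559 in edgeR's test.

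The genes with the most similar pattern were sought among the 7019 other genes whose FPKM averaged 10 or more, by the root mean square difference of log2(FPKM + 0.5) over the 6 libraries after centring each gene on its own mean. For *Xyn10A* the nearest were *POX03711* (0.135), the feruloyl esterase gene *POX09137* (0.145) and *POX08484* (0.158), all of them genes of xylan breakdown. For *POX05916* they were *POX05915* (0.105), which is the cellodextrin transporter gene *PoxCdtD*, *POX04276* (0.106), which carries sugar transporter entries, and *POX04800* (0.109). *POX05915* was far more abundant than *POX05916*, with means of 458.9 FPKM in Δ*PoxMKK1* and 2104 FPKM in Δ*PoxKu70*. For *POX04274* they were *POX08268* (0.102), *POX08030* (0.107) and *POX03086* (0.115).

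The remaining members had no gene as near. For *Xyn11A* the nearest were *POX03505* (0.32), *POX01188* (0.36) and the α-galactosidase gene *POX09085* (0.36), and for *POX03430* *POX05384* (0.21), *POX04838* (0.22) and *POX07894* (0.23). For *POX06601*, whose mutant libraries varied most, the nearest were *POX09798*, *POX09719* and *POX05703*, at 0.71 each. Between members, the smallest difference was 0.28, for *POX05916* and *POX04274*, and the largest 3.12, for *POX03430* and *POX06601*. The 2 genes of a family were not each other's nearest member in any of the 3 families. These values rank profiles over 6 libraries in which the strain difference is the main part.

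Genes with the identifiers next to a member were described because they were chosen by number and not by level. Of 36 genes within 3 identifiers of a member, 32 were tested and 13 were called, or 40.6%, with 9 lower and 4 higher, beside 19.8% of all genes tested. Their median log2 fold change was -0.03, beside 0.01 over all genes tested, and 11 to 14 were called with each library left out. Whether consecutive identifiers are neighbours in the genome was not checked, since the annotation table used here numbers genes in another way.

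The calls were unevenly spread over the members. Around *POX06601*, 5 of 6 genes were called. *POX06599* (-2.16) and *POX06600* (-1.96), which are listed as β-xylosidases of GH62 and GH43 and both carry CBM1, and *POX06603* (-2.10) were lower, as was *POX06602* (-1.11, edgeR adjusted p = 0.0364), whose call was lost with limma and without any 1 of 4 libraries, among them replicate F of Δ*PoxMKK1* (-0.84) and replicate S of Δ*PoxKu70* (-0.85). The other 2 were replicate S of Δ*PoxMKK1* (-1.13) and replicate T of Δ*PoxKu70* (-1.13). *POX06604*, which carries sugar transporter entries, was higher (1.53), and *POX06598* was at -0.06. *POX06599* had FPKM values of 95.8, 46.7 and 66.7 in Δ*PoxMKK1*, against 327.3, 386.8 and 176.2 in Δ*PoxKu70*, and so followed the order of libraries of *POX06601* in both strains. *Xyn10A*, *POX05916* and *POX03430* had this order too, so it is not particular to these adjacent genes.

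Beside *POX05916* the gene called was the cellodextrin transporter gene *PoxCdtD* (*POX05915*), with a log2 fold change of -2.26 (edgeR adjusted p = 0.000428), and of the 7019 genes searched it had the profile most similar to that of *POX05916*. After *POX04274*, *POX04275* (-1.81) and the putative sugar transporter gene *POX04276* (-2.56) were lower. *POX03430* lay between *POX03429* (1.15; edgeR adjusted p = 0.000263) and *POX03431* (1.36; edgeR adjusted p = 0.00172), which both rose like *POX03430* itself. *POX03429* had 74.8, 89.2 and 93.8 FPKM in Δ*PoxMKK1*, against 38.3, 36.4 and 36.4 FPKM in Δ*PoxKu70*, so its mutant libraries were in another order than those of *POX03430*.

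Near *Xyn10A* the genes called were *POX00065* (-1.20) and *POX00066* (2.50), both with under 15 FPKM in every library. With limma the log2 fold change of *POX00066* was 1.88 at a pseudocount of 0.5 and 1.50 at a pseudocount of 1. The call of *POX00065* was lost without replicate F (adjusted p = 0.0502 in edgeR's test) or replicate S (adjusted p = 0.0578 in edgeR's test) of Δ*PoxMKK1* and with limma at a pseudocount of 1 (-0.97). Near *Xyn11A*, *POX06780* (-1.71) was called at 0.4 to 0.56 FPKM in Δ*PoxMKK1* and 0.83 to 1.9 FPKM in Δ*PoxKu70*, and 2 of the 6 adjacent genes were too low to be tested. The more abundant genes there, *POX06784* (0.12), *POX06785* (-0.57) and *POX06786* (-0.32), were not called.

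**Figure D5:**
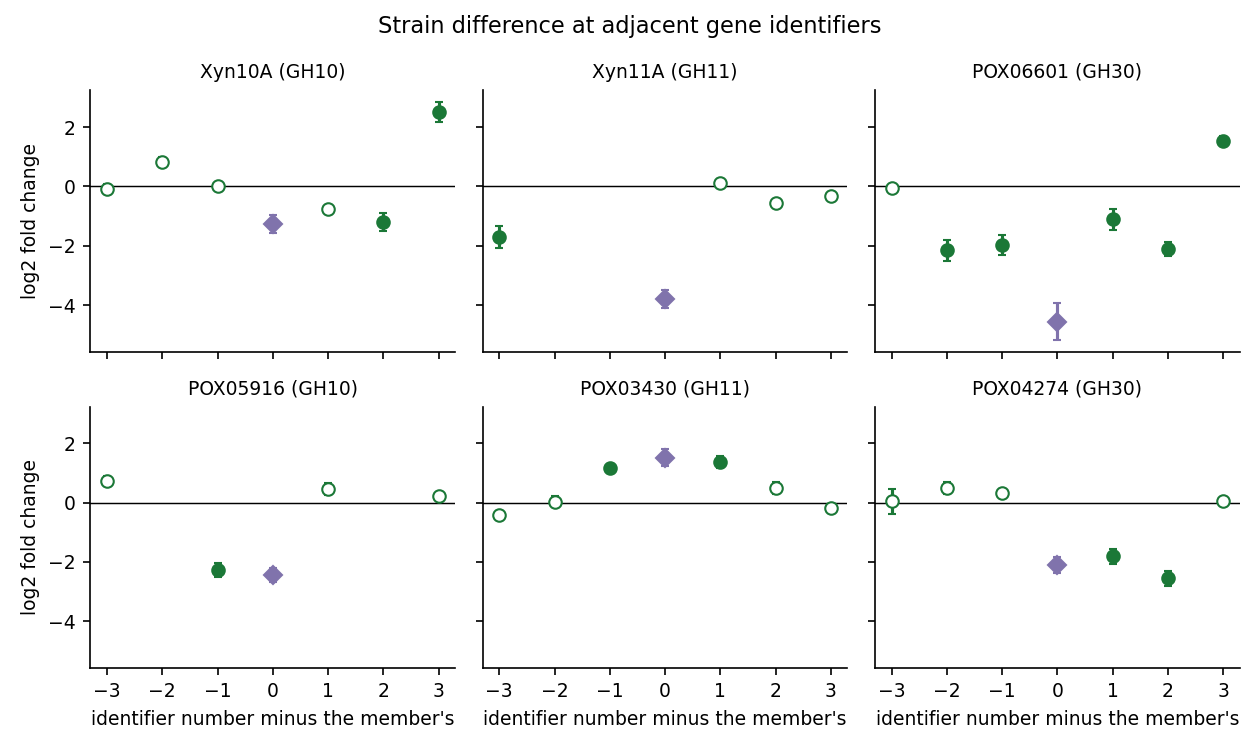
Log2 fold change of Δ*PoxMKK1* over Δ*PoxKu70*, with the standard error, of each member (diamond, at 0 on the x axis) and of the genes up to 3 identifiers below and above it (circles, filled where called); genes that were too low to be tested are not drawn. Around *POX06601* 5 of 6 genes are called, and on either side of *POX03430* the adjacent genes lie at 1.15 and 1.36.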

How the data were processed

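Messenger RNA of mycelia of Δ*PoxMKK1* and Δ*PoxKu70* (3 libraries each) was sequenced on a BGISEQ-500 platform. The authors deposited, per gene and library, an expected count, an estimated read number that is not normalized, and an FPKM value, normalized for transcript length and read number. The submitters' processing notes name BWA 0.7.10-r789, Bowtie2 2.1.0, RSEM 1.2.12 and DESeq2 without their roles; the use of strand is not given in the sources used here, so overlapping genes are uncertain. No member nor *POX08484* had a fractional count.

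Expected counts were rounded and tested over 8749 of 9834 genes by edgeR's quasi-likelihood test (edgeR 4.0.16 under R 4.3.3; filterByExpr, TMM normalization, Benjamini-Hochberg adjustment), with no replicate block. Fold changes on this scale are Δ*PoxMKK1* over Δ*PoxKu70*. On simulated counts with 198 changed genes among 8695 tested, 190 of them and 5 unchanged genes were called. The p-values measure the spread between the 3 libraries of a strain, which the study calls biological replicates. Alternatives were limma 3.58.1 on log2(FPKM + pseudocount) of genes averaging 1 FPKM or more, DESeq2 1.42.0, other scalings, no filter, a replicate block, the ratio of mean FPKM and each library left out. Genes named are the members, *POX08484*, the listed genes, the adjacent identifiers and the 3 genes nearest in profile to each member; within lists, those named were picked after their values were seen. Members and lists were chosen with earlier results of these data known. Tables were handled with Python 3.11.15, pandas 2.3.3, numpy 2.4.6, scipy 1.17.1 and matplotlib 3.10.9. Identifiers are those of the files; 0 of 9834 matched the RefSeq table, so no positions or sequences are given.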

Additional observations from a re-analysis of the deposited data

How the results depend on the processing

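Across 14 alternatives to the edgeR fit, all 6 members kept their direction and stayed past the threshold, which the main fit passed for 19.8% of all genes tested. Their choice on these same libraries makes this likely, and nothing is read from it. The widest range without 1 library was that of *POX06601*, from -5.381 to -4.175 on the log2 scale. *POX08484* fell short of the fold minimum in 8 of 15 alternatives, with an adjusted p below 0.05 in each that gives one. It was at -0.982, -0.982 and -0.981 with limma at pseudocounts of 0.5, 0.1 and 1, at -0.974 with library sizes alone and at -0.976 as the log2 ratio of mean FPKM, which has no test. With each library left out it ranged from -1.239 to -0.87, and 3 of these 6 fits fell short. The replicate letters were to count as pairing the libraries if the same-letter correlation of deviations was over 0.1 in each of the 3 pairs. It was 0.31 for F, 0.03 for S and 0.12 for T, so the rule was not met. The value for F was the highest of all pairs, and replicate T of Δ*PoxKu70* also correlated best with its own letter. Replicate S of Δ*PoxKu70* correlated best with replicate T of Δ*PoxMKK1* (0.16). With a replicate block, 959 genes were called higher and 780 lower in place of 947 and 781. The ratio of the summed FPKM of the 6 members, 0.716, ranged from 0.603 to 0.799 when libraries were omitted singly and was 0.639 with *POX08484* added, an alternative sum set up after seeing the data. The lowest count of a member in any library was 97, for *POX06601* in replicate S of Δ*PoxMKK1*. Scalings moved the median log2 fold change of all genes by less than 0.1.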
